A study of Homo sapiens and Pan troglodytes with 11 samples.

Results

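GLI2 is a zinc-finger transcription factor through which Hedgehog signals reach the nucleus, and its transcript was counted in single neurons of a human and a chimpanzee line. It was followed here through every table that has a GLI2 column, which is 4 of the 11 libraries. These tables hold 18699 of the 41950 cells of the series and 21 genes, so GLI2 is 1 of the 21 genes of these tables and 1 of the 24 genes of the series. GAPDH, a glycolytic enzyme and the most abundant transcript of these tables, was set aside, and levels are UMIs (unique molecular identifiers, 1 per captured molecule) per 1000 UMIs of the other 20 genes. Cells with over 80% of their gene UMIs on GAPDH were left out, and 16969 cells remained.

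The study examined human accelerated regions, stretches of conserved DNA that changed fast on the human lineage, in excitatory neurons grown for 2 weeks from induced pluripotent stem cells. The human group is the line WTC11 and the chimpanzee group the line C3649, so each species is 1 line, and the labels do not say that the libraries of a line were separate cultures. Both groups were under CRISPR interference (CRISPRi), in which a guide RNA brings a repressor to a chosen DNA site, and carried pooled guides read through 28 guide barcodes (7 named Brainbar and 21 named SplintRbar). No library without CRISPRi was analysed here. The readout was HyPR-seq, in which probe pairs are ligated on RNA in fixed cells and counted in droplets. The libraries with GLI2 are human 4 and human 5, and chimpanzee 3 and chimpanzee 4, all of screen replicate 2.

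In the Hedgehog pathway a secreted ligand such as Sonic hedgehog binds the receptor PTCH1, which releases the membrane protein SMO from inhibition. SMO then acts through SUFU and the primary cilium on the GLI factors, of which GLI2 is the main activator and GLI3 mostly a repressor, while GLI1 is a target that amplifies the signal. In the developing nervous system GLI2 is known chiefly from dividing progenitors, where it takes part in ventral patterning. Of 19 genes listed for the pathway (ligands, receptors, SMO, SUFU, the GLI factors and modifiers), GLI2 was the sole member among the genes counted. The data therefore hold no ligand, receptor or target to set beside it. GLI2 lies on chromosome 2 at 120735868 to 120992653 (GRCh38.p14, RefSeq), on the forward strand in GENCODE v29, with 13 annotated transcripts of up to 14 exons. It is the only one of the 21 genes of these tables on that chromosome.

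The labelled cell type could not be checked against its markers, since 0 of 14 excitatory neuron markers, 0 of 8 progenitor markers, 0 of 4 astrocyte markers and 0 of 3 pluripotency markers were counted. As a reference level for a gene that neurons are not known to use, DAZL, which encodes an RNA-binding protein of germ cells, is given beside GLI2. No cell type that should lack GLI2 is named in the labels. How well the probes match chimpanzee transcripts was not analysed here, and its part in every species difference below was not tested.

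The libraries differed in depth and in their share of GAPDH. They held 862461 (human 4), 835814 (human 5), 1673488 (chimpanzee 3) and 1028207 (chimpanzee 4) gene UMIs, and the median kept cell had 101, 86, 111 and 98 UMIs outside GAPDH. In human 4, 1712 of 3825 cells (44.8%) were over the GAPDH limit, against 9, 2 and 7 cells in the other libraries. Many cell barcodes occurred in more than 1 library: human 4 and human 5 shared 1060, human 4 and chimpanzee 3 shared 1003, human 5 and chimpanzee 3 shared 995, and chimpanzee 4 shared 1436 with chimpanzee 5, a library without GLI2. Among the shared barcodes of these pairs, 23.4% to 42.0% also had the same leading guide barcode, where the guide frequencies alone give 4.38% to 6.64%. Of the kept cells, 14.1%, 25.8%, 19.5% and 32.6% carried a shared barcode, and the species ratio, the detection, the dispersion, the leading correlation and the barcode calls are also given without them. GLI2 stood at 7.79, 6.37, 18.8 and 17.8 UMIs per 1000 in the cells with a shared barcode and at 7.80, 7.51, 20.8 and 18.7 in the others.

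GLI2 was higher in the chimpanzee libraries than in the human libraries. It reached 7.80 UMIs per 1000 in human 4 (1763 UMIs; 95% Poisson interval 7.44 to 8.17) and 7.30 in human 5 (3337 UMIs; 7.06 to 7.55). Chimpanzee 3 had 20.5 per 1000 (16298 UMIs; 20.2 to 20.9) and chimpanzee 4 had 18.3 (9340 UMIs; 18.0 to 18.7). These intervals cover counting error only. Both chimpanzee libraries lie above both human libraries, and the gap between species is far wider than the gap between libraries of a species. The means were 7.55 ± 0.350 per 1000 in human and 19.4 ± 1.55 in chimpanzee (SD, n = 2 libraries each). A two-sided exact permutation test gave p = 0.333, the smallest value that 2 against 2 libraries allow.

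In the fit over all 20 genes, GLI2 had 6.82 and 6.55 normalized UMIs per 1000 in human 4 and human 5, and 23.3 and 20.6 in chimpanzee 3 and chimpanzee 4. The log2 ratio of human over chimpanzee was -1.72 (SE 0.0877; edgeR's quasi-likelihood test, Benjamini-Hochberg adjusted p = 1.14e-06). This is the third largest change by size among the 20 genes. The background is high: 15 of the 20 genes (75%) passed the same test, 8 of them (40%) lower in human, and the libraries of the species did not overlap for 18 genes (90%). The SE rests on a spread shared between genes and on 2 libraries per species.

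The size of the ratio depended on the scale. Relative to plain totals, GLI2 had a log2 ratio of -1.37, and 12 genes were called higher and 5 lower in human, against 7 higher (35% of the 20) and 8 lower with TMM factors. The median of all 20 genes moved from -0.08 to 0.27 between these scales. Relative to that median GLI2 stood at -1.64 on both. Without the cells that carry a shared barcode the ratio was -1.72.

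**Figure D1:**
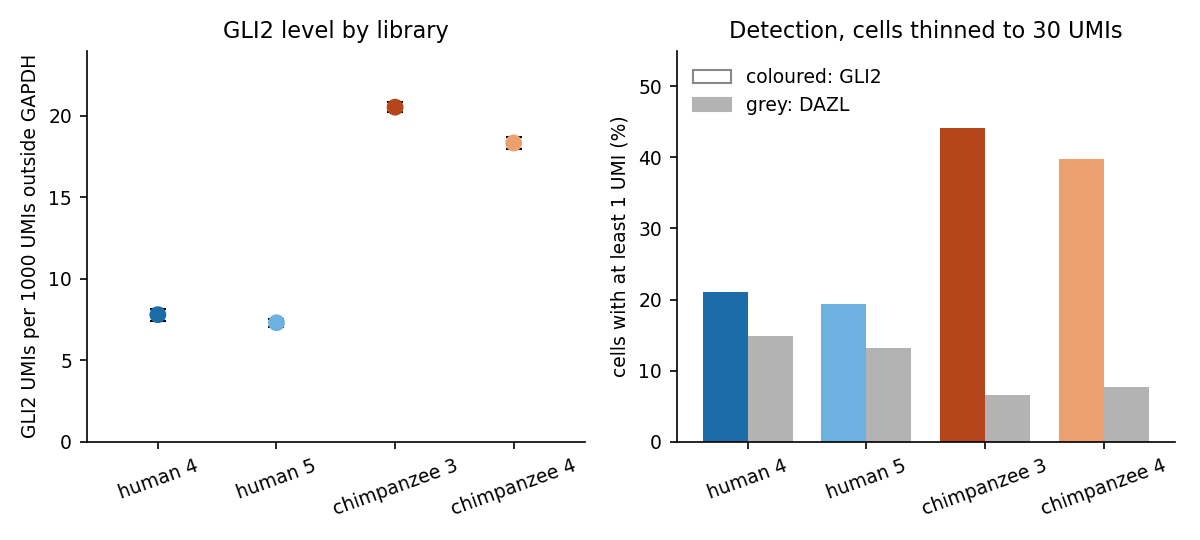
Left, GLI2 UMIs per 1000 UMIs outside GAPDH in each library, with 95% Poisson intervals. Right, percent of cells with at least 1 UMI of GLI2 (coloured bars) or DAZL (grey bars) after each cell was thinned to 30 UMIs outside GAPDH. GLI2 is higher in both chimpanzee libraries (20.5 and 18.3 per 1000) than in both human libraries (7.80 and 7.30), while DAZL is lower there.

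More chimpanzee than human cells held GLI2. At full depth 48.7% of cells in human 4 and 46.2% in human 5 had at least 1 GLI2 UMI, against 83.6% in chimpanzee 3 and 74.6% in chimpanzee 4. DAZL was found in 37.5%, 33.9%, 24.8% and 25.0% of the same cells, in the same order. GLI2 was thus found in more cells, and DAZL in fewer, in both chimpanzee libraries than in both human ones.

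Depth differs between cells, so each cell was also thinned to 30 UMIs outside GAPDH. GLI2 was then present in 21.1% (human 4), 19.4% (human 5), 44.2% (chimpanzee 3) and 39.8% (chimpanzee 4) of cells. The thinning left out 311, 119, 14 and 45 shallower cells. DAZL, thinned likewise, was present in 14.8%, 13.2%, 6.54% and 7.75%. The species do not overlap in either gene, and the direction of DAZL is opposite to that of GLI2. For GLI2 the means were 20.2% ± 1.16 and 42.0% ± 3.07 (SD, n = 2 each; exact permutation p = 0.333, the smallest possible), a difference of -21.8 percentage points, and -21.4 without shared barcodes. DAZL itself was 5.08 and 4.62 UMIs per 1000 in human 4 and 5 and 2.27 and 2.69 in chimpanzee 3 and 4. Per-gene probe numbers and efficiencies were not analysed here, so the levels of GLI2 and DAZL were not ranked against each other.

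Most human cells with GLI2 had a single UMI, while chimpanzee cells spread over many levels. In human 4, 51.3% of cells had no GLI2 UMI, 28.4% had 1, 12.1% had 2 and 7.00% had 3 to 4. Human 5 was close to this, with 53.8% at none, 29.5% at 1 and 4.77% at 3 to 4. In chimpanzee 3, 16.4% of cells had none, 22.0% had 1, 18.6% had 2, 23.9% had 3 to 4 and 16.1% had 5 to 9. Chimpanzee 4 held 25.4%, 24.2%, 18.1%, 19.6% and 11.6% in these classes. Cells with 10 or more GLI2 UMIs numbered 1 in human 4, 0 in human 5, 178 in chimpanzee 3 and 51 in chimpanzee 4. The highest single cell had 10, 9, 26 and 24 UMIs, and the mean per cell was 0.834, 0.724, 2.80 and 2.11, in the order human 4, human 5, chimpanzee 3, chimpanzee 4. The difference between species was therefore spread over the cells, with no small set of cells holding most GLI2 UMIs: in chimpanzee 3 the cells with 10 or more held 13.7% of them, and in chimpanzee 4 6.69%.

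**Figure D2:**
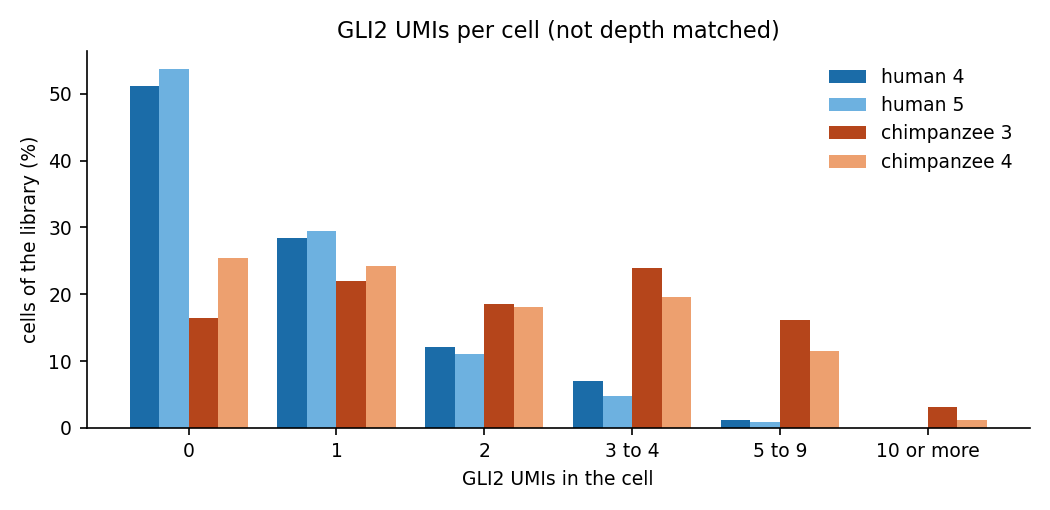
Percent of each library's kept cells by the number of GLI2 UMIs in the cell, at full depth. Human cells are mostly at 0 and 1, and cells with 10 or more are found almost only in the chimpanzee libraries (178 and 51 cells).

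GLI2 varied between cells beyond counting noise in all 4 libraries. The measure is a dispersion, the variance beyond Poisson counting divided by the squared mean at the cell's depth, over cells with at least 10 UMIs outside GAPDH. It was 0.269 in human 4, 0.226 in human 5, 0.165 in chimpanzee 3 and 0.267 in chimpanzee 4. The species overlap, since chimpanzee 3 is the lowest and chimpanzee 4 nearly the same as human 4. Means were 0.247 ± 0.0299 and 0.216 ± 0.0719 (SD, n = 2 each; two-sided exact permutation p = 0.667 on the log2 scale), a log2 difference of 0.23. Among the 20 genes GLI2 ranked 5th, 4th, 8th and 7th by dispersion, and the median gene had 0.163, 0.126, 0.131 and 0.154. DAZL had 0.224, 0.223, 0.182 and 0.118. It was thus lower than GLI2 in human 4 and chimpanzee 4, nearly equal in human 5 and higher in chimpanzee 3. Spread beyond counting was therefore not particular to GLI2. The GLI2 dispersions correspond to a spread of 51.8%, 47.6%, 40.6% and 51.7% of the mean beyond counting.

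The dispersion was also taken without the 1% of cells farthest above their expectation. It was then 0.136, 0.0469, 0.126 and 0.204, so human 5 moved most and the log2 difference between species turned to -1.01. Leaving out the highest counts lowers a dispersion in any case, so the drop does not show that a few extreme cells set it. The cut may also act unequally where GLI2 levels differ, as between the species. The log2 difference also turned, to -0.11, without chimpanzee 3. Without shared barcodes it was 0.04. No direction between species can be read for the spread of GLI2.

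High cells were defined as those whose GLI2 count has a Poisson probability under 0.001 at their depth. They numbered 7 in human 4, 10 in human 5, 29 in chimpanzee 3 and 29 in chimpanzee 4, where Poisson counting gives 0.879, 1.91, 3.13 and 2.23. Their median GLI2 level was 41.5, 51.8, 75.3 and 73.2 UMIs per 1000. Every library thus had more high cells than counting gives, yet they made up 0.332%, 0.217%, 0.498% and 0.656% of cells and held 2.95%, 2.13%, 2.24% and 3.52% of GLI2 UMIs. They were deeper than the other cells: their median was 211, 154, 147 and 160 UMIs outside GAPDH, against 101, 86, 111 and 98. No doublet caller was run, and the part of cells caught together in a droplet was not tested. The number of high cells that the dispersions above would give was not computed.

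ONECUT2, a homeodomain transcription factor, was lower in the high cells of all 4 libraries. Per 1000 UMIs of the other genes, the high cells held 35.3 (human 4), 15.4 (human 5), 8.05 (chimpanzee 3) and 11.1 (chimpanzee 4) ONECUT2 UMIs, and the remaining cells 46.3, 56.2, 19.7 and 22.2. SCRT2, a zinc-finger repressor of differentiating neurons, was also lower in each, at 9.70, 6.71, 5.84 and 8.86 against 12.6, 12.4, 12.3 and 11.8. The SCRT2 values rest on 11, 10, 29 and 40 UMIs. AKAP6, a kinase-anchoring protein, SOCS2, a regulator of cytokine signalling, and PLCL2, a phospholipase C-like protein, were lower in all 4 as well, with mean log2 differences of -0.60, -0.67 and -0.30. BAZ1A, a subunit of a chromatin remodeller, and DCTD, a deaminase of nucleotide metabolism, were higher in all 4, by a mean log2 of 0.17 and 0.13. The highest mean, 0.31, was that of the transcription factor NPAS3. It was not higher in chimpanzee 4, at 146.2 per 1000 in the high cells against 146.4. These are descriptions of few cells, without a test.

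Low cells were most visible where much GLI2 was due. Among cells deep enough to expect at least 3 GLI2 UMIs, 96 of 1677 in chimpanzee 3 and 49 of 707 in chimpanzee 4 had none, where Poisson counting gives 31.8 and 15.5. Only 8 cells in human 4 and 7 in human 5 were this deep, and 0 and 1 of them had none. Over all cells with at least 10 UMIs, GLI2 was absent from 51.1%, 53.7%, 16.4% and 25.4%, against 49.4%, 51.7%, 11.6% and 18.3% under Poisson counting. A negative binomial with the dispersions above gives 52.6%, 54.2%, 15.1% and 23.9%, which is above the observed share in both human libraries and slightly below it in both chimpanzee ones. In human cells the depth cannot show cells that lack GLI2.

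GLI2 varied less with the depth of a cell than between species. From the shallowest to the deepest of 4 equal bins of cells it went from 9.04 to 7.32 UMIs per 1000 in human 4 and from 7.71 to 7.26 in human 5. In chimpanzee 3 it went from 19.3 to 20.5 and in chimpanzee 4 from 17.1 to 18.2. Ordered by the share of GAPDH, the lowest and highest bins held 8.15 and 7.13 in human 4 and 7.97 and 6.88 in human 5. The same bins held 18.4 and 21.9 in chimpanzee 3 and 16.8 and 20.8 in chimpanzee 4. With more GAPDH, GLI2 was thus lower in both human and higher in both chimpanzee libraries, without a test of this contrast. Every bin of both chimpanzee libraries lay above every bin of both human libraries.

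In the mean over the 4 libraries, the gene whose pattern over cells was most like that of GLI2 was NPAS3, a transcription factor of neural development. Likeness was the correlation of depth-corrected counts (Pearson residuals) over the cells of a library, averaged over 4 libraries. It was 0.171 in human 4, 0.128 in human 5, 0.101 in chimpanzee 3 and 0.115 in chimpanzee 4 (mean 0.129), over 2107, 4604, 5823 and 4420 cells. BAZ1A followed with a mean of 0.0748, and TENM3, a teneurin adhesion protein of developing circuits, with 0.0680. TENM3 was split by species, at 0.0175 and 0.0184 in human 4 and 5 and 0.120 and 0.116 in chimpanzee 3 and 4. It was thus above NPAS3 in chimpanzee 3 and nearly equal to it in chimpanzee 4.

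The genes least like GLI2 were AKAP6, with a mean of -0.222, ONECUT2, with -0.216, and PLCL2, with -0.0996. AKAP6 had -0.165 and -0.108 in human 4 and 5 and -0.309 and -0.306 in chimpanzee 3 and 4. ONECUT2 had -0.157, -0.182, -0.258 and -0.268. All 3 were negative in all 4 libraries, and farther from 0 in both chimpanzee libraries than in either human one, where GLI2 counts are also lower. Since the counts of a cell share a total, independent genes would have values slightly under 0, -0.0428 for NPAS3, -0.0407 for AKAP6 and -0.0202 for ONECUT2. DAZL had a mean of 0.0117.

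All these correlations are small, and in counts this sparse they are a description of shared cells, depth and total. Of the 190 gene pairs, which ran from -0.370 to 0.335 with a median of -0.0269, 7 had a higher mean than GLI2 with NPAS3 and 11 a lower one than GLI2 with AKAP6. With the depth taken from the other genes alone, leaving out both of the pair, the means were 0.220 for NPAS3, 0.160 for TENM3, 0.140 for BAZ1A, -0.0731 for PLCL2, -0.136 for AKAP6 and -0.173 for ONECUT2. Rank correlations of the shares gave 0.105, 0.0750, 0.0664, -0.0637, -0.160 and -0.170 in the same order. In these means over libraries NPAS3 was the highest by all 3 measures. TENM3 came before BAZ1A and ONECUT2 below AKAP6 by the latter 2. Without shared barcodes, by the first measure, NPAS3 had 0.139.

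**Figure D3:**
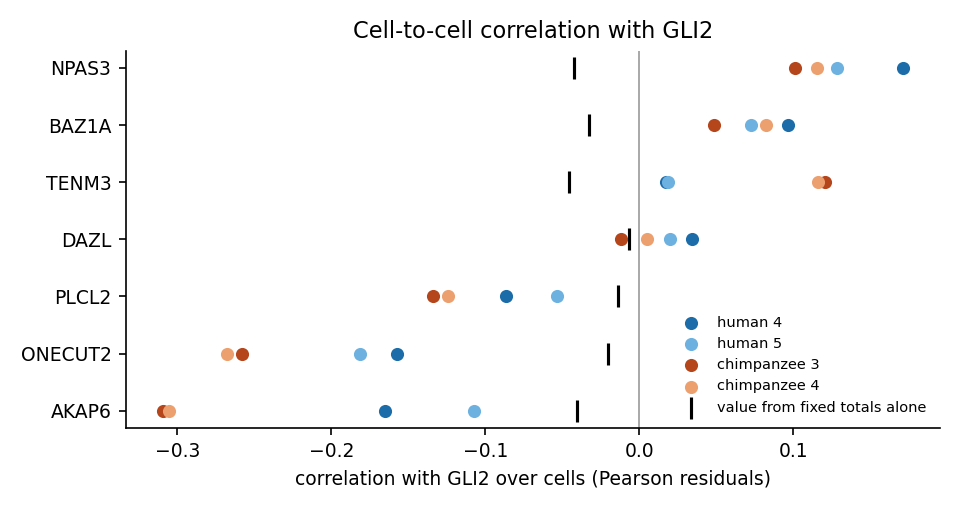
Correlation with GLI2 over cells (Pearson residuals), 1 point per library, for the 3 genes most like it, the 3 least like it and DAZL. Black ticks mark the value that a shared total alone gives. NPAS3 lies above 0 and AKAP6, ONECUT2 and PLCL2 below 0 in all 4 libraries.

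Levels of GLI2 were also set against each of these genes, which were picked by their correlation in the same cells. The share of the ordering gene and the level of GLI2 have the same denominator, so cells with few other UMIs can be high in both. From the lowest to the highest bin of NPAS3, the median of other UMIs went from 85 to 76 in human 4 and 84 to 67 in human 5. In chimpanzee 3 it went from 99 to 78 and in chimpanzee 4 from 83 to 73. The bins describe these cells and are no test of the correlations. When cells of each library were ordered by their share of NPAS3 and divided into 4 equal bins, GLI2 (per 1000 UMIs of the genes other than the pair) went from 6.59 in the lowest to 12.8 in the highest bin of human 4. In human 5 it went from 5.97 to 11.1, in chimpanzee 3 from 19.5 to 31.9 and in chimpanzee 4 from 15.9 to 28.3. The highest bin thus exceeded the lowest by 1.94, 1.86, 1.63 and 1.78 times. By bins of TENM3 it exceeded it by 1.36 and 1.36 times in the human and 1.68 and 1.88 times in the chimpanzee libraries, and by bins of BAZ1A by 1.99, 1.69, 1.34 and 1.54 times.

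With ONECUT2, GLI2 went the other way. From the lowest to the highest bin of ONECUT2 it went from 10.6 to 6.78 in human 4, from 9.46 to 6.02 in human 5, from 24.1 to 15.8 in chimpanzee 3 and from 21.7 to 13.1 in chimpanzee 4. Cells without any ONECUT2 UMI held 11.1, 10.3, 24.2 and 21.9 GLI2 UMIs per 1000 of the other genes, and cells with 3 or more held 7.12, 7.06, 18.2 and 15.0. Cells without ONECUT2 made up 20.7% and 9.84% of human 4 and 5 and 28.1% and 33.5% of chimpanzee 3 and 4, and were shallower (median of 66, 65, 94 and 82 UMIs of the other genes) than those with 3 or more (126, 87, 135 and 122.5). Even the human cells without ONECUT2 had less GLI2 than the chimpanzee cells with 3 or more. By bins of AKAP6, the lowest exceeded the highest by 1.28 and 1.13 times in the human and 1.56 and 1.71 times in the chimpanzee libraries. By bins of PLCL2 it did so by 1.43, 1.11, 1.22 and 1.25 times.

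**Figure D4:**
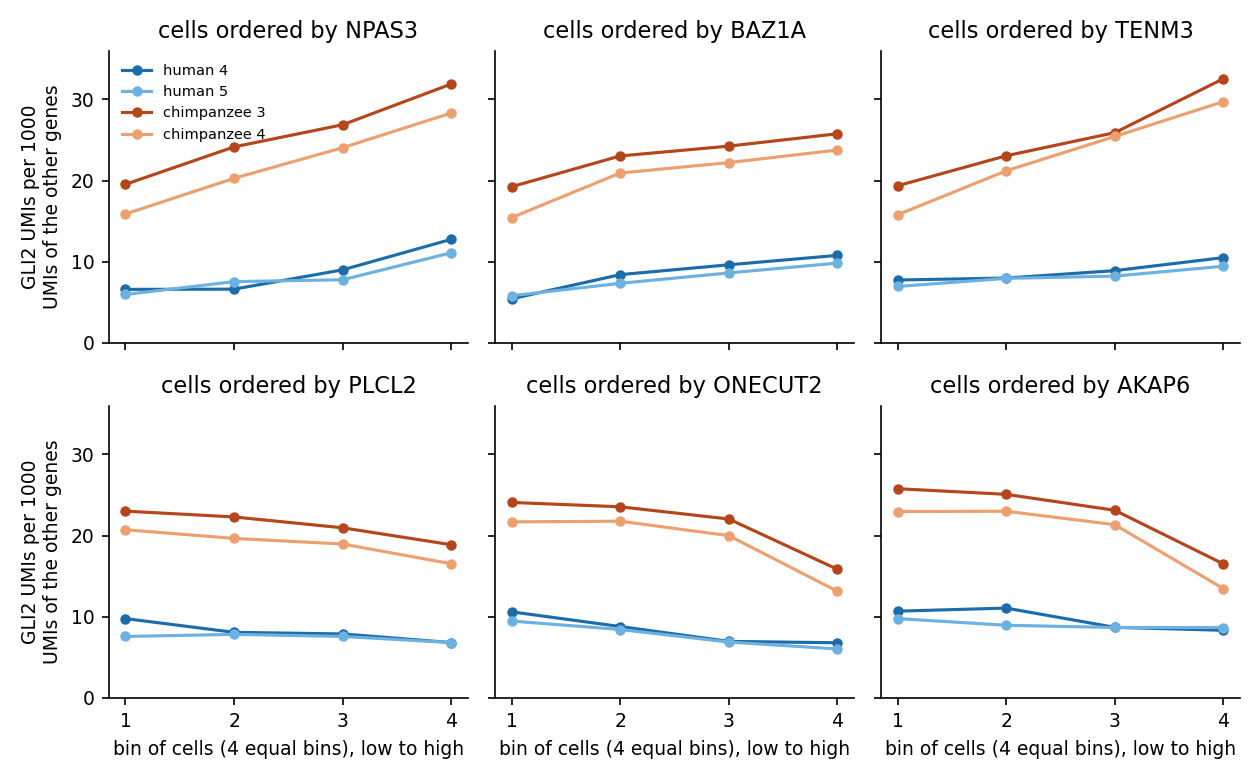
GLI2 UMIs per 1000 UMIs of the genes other than the pair, over 4 equal bins of each library's cells ordered from low to high by the gene named above each panel. GLI2 is higher in the top than in the bottom bin of NPAS3, BAZ1A and TENM3 and lowest in the top bin of ONECUT2 and PLCL2 in all 4 libraries, with both chimpanzee libraries above both human libraries throughout.

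Several of these genes themselves differed between the species in the fit of all 20. NPAS3 had a log2 ratio of human over chimpanzee of -1.33, TENM3 of -1.14 and BAZ1A of -0.80, all lower in human as GLI2 was, while AKAP6 had 0.90 and ONECUT2 0.97. Each passed edgeR's test (adjusted p at most 7.70e-05). PLCL2 had -0.09 (adjusted p = 0.283). DAZL had 0.62 (adjusted p = 0.00148). These ratios share libraries and totals with that of GLI2 and are given side by side only.

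CRISPRi guides were read from their barcodes. The labels and tables used here pair no barcode with a target or a control, so each barcode was set against the mean of the others of its species. Almost all cells (96.1% to 98.4%) had several barcodes with at least 5 UMIs. A cell was assigned to 1 barcode where that barcode had at least 5 UMIs and at least 70% of the guide UMIs, which left 745, 831, 811 and 1003 cells in human 4, human 5, chimpanzee 3 and chimpanzee 4. Only 43, 182, 95 and 128 of the kept cells had at most 1 barcode with at least 5 UMIs. Most assigned cells thus carried another barcode at that count, and the assigned barcode is their leading one, not their only one. The fit held 3344 assigned cells, in 98 groups of 1 barcode and 1 library with a median of 30 cells. It covered 25 human and 24 chimpanzee barcodes.

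No barcode was called for GLI2 in either species by edgeR's quasi-likelihood test with adjustment over all genes and barcodes. The count was 0 of 25 in human and 0 of 24 in chimpanzee, where 1.6% (8 of 500) and 0.208% (1 of 480) of all gene and barcode pairs were called. Taken over both species it was 0 of 23 (0.435% of all pairs), and for a difference of effect between species 0 of 23 (0.87%). At an unadjusted p under 0.05 the counts for GLI2 were 0, 2, 0 and 2, in that order. DESeq2 also called 0 in each, with 1, 3, 2 and 1 at an unadjusted p under 0.05. Without chimpanzee 3 the fitted log2 ratio of Brainbar2 in chimpanzee was 0.83, against 0.14 with both libraries. By plain shares against the other groups of the same library, a different measure, Brainbar2 had -0.26 in chimpanzee 3 and 0.44 in chimpanzee 4.

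In human cells the highest GLI2 ratio was that of Brainbar1, with 8.15 UMIs per 1000 in human 4 (15 cells, 14 UMIs) and 13.9 in human 5 (15 cells, 20 UMIs). Its log2 ratio to the other barcodes was 0.59 (SE 0.31, edgeR adjusted p = 0.655). SplintRbar4 followed with 0.46 and Brainbar4 with 0.34. The lowest was Brainbar8, with 2.16 per 1000 in human 4 (8 cells, 2 UMIs) and 6.92 in human 5 (23 cells, 15 UMIs) and a log2 ratio of -0.66 (SE 0.38, adjusted p = 0.764). SplintRbar14 had -0.41 and SplintRbar18 -0.40. All 6 lay on the same side in both human libraries, which is favoured by their choice as extremes of the fit to these libraries. None passed the adjusted test.

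In chimpanzee cells the lowest was Brainbar3, with 13.3 per 1000 in chimpanzee 3 (9 cells, 17 UMIs) and 5.48 in chimpanzee 4 (6 cells, 2 UMIs). Its log2 ratio was -0.85 (SE 0.37, edgeR adjusted p = 0.537). SplintRbar30 had -0.43 and SplintRbar12 -0.30. At the other end, SplintRbar15 had 0.39, SplintRbar20 0.39 and SplintRbar9 0.27. SplintRbar20 was at 28.1 per 1000 in chimpanzee 3 (51 UMIs) and 11.2 in chimpanzee 4 (5 UMIs), so its libraries went opposite ways.

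Of all barcodes, 14 of 25 in human and 12 of 24 in chimpanzee were on the same side in both libraries of the species. Brainbar3 also had the largest difference between species, with a log2 of 1.18 (SE 0.56, edgeR adjusted p = 0.574). Its fitted ratios were 0.33 in human and -0.85 in chimpanzee. By plain shares against the other groups of the same library, it had 0.24 and -0.11 in human 4 and 5. Brainbar8, with -0.91, was the largest the other way. The 95% interval of a barcode reached a median of 0.53 log2 units to either side in human and 0.43 in chimpanzee. The widest bounds were -1.42 and 1.21 in human and -1.58 and 0.93 in chimpanzee. For each barcode, changes within its own interval are not excluded. The intervals are not adjusted for the number of tests. In chimpanzee those of Brainbar3 (-1.58 to -0.12) and SplintRbar30 (-0.85 to -0.01) lay below 0, but neither passed the adjusted test. Without shared barcodes the counts were also 0 in all 4 comparisons.

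**Figure D5:**
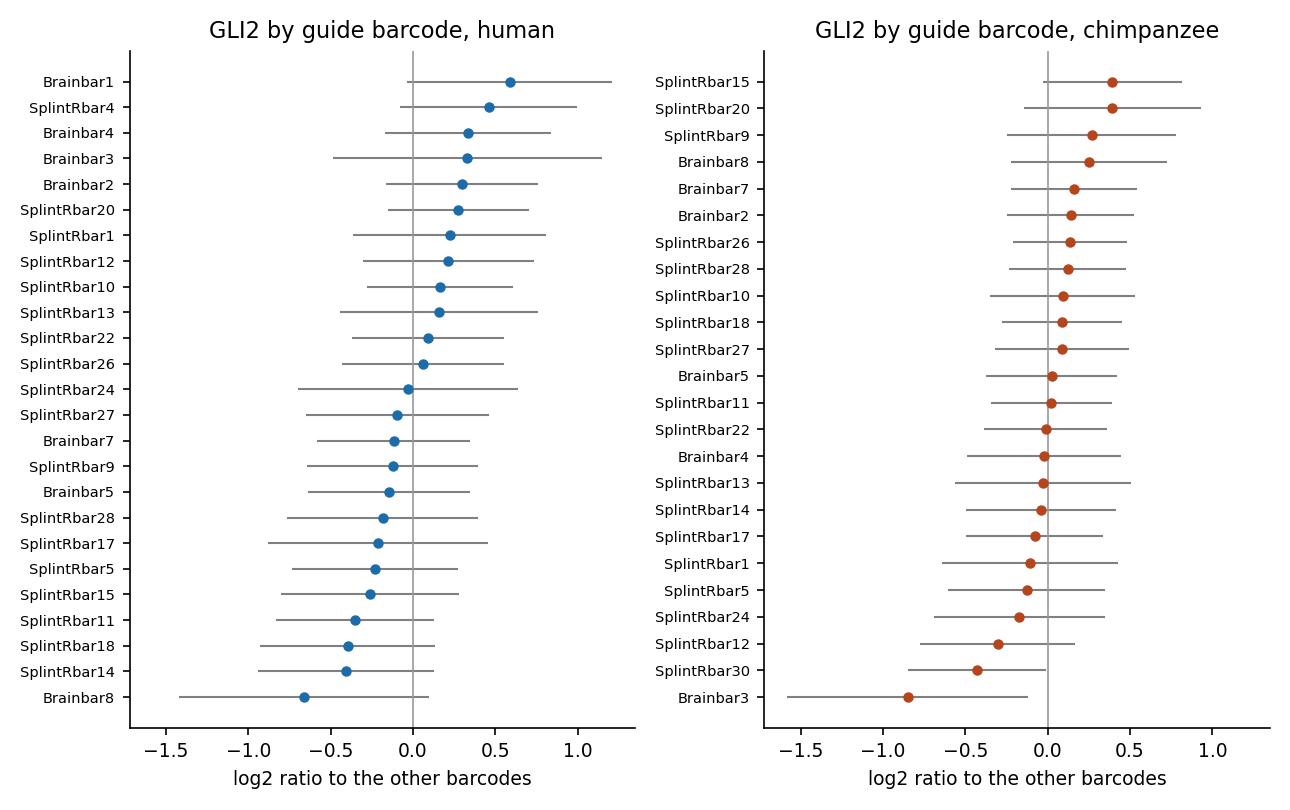
Log2 ratio of GLI2 in the cells of each guide barcode to the mean of the other barcodes of the species, with 95% intervals from the fit (human left, chimpanzee right). Most intervals span 0, and none of the 25 human or 24 chimpanzee ratios passed the adjusted test.

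The species were also compared within the 23 barcodes present in both libraries of both species. With the 2 libraries of a species summed, the chimpanzee cells had more GLI2 than the human cells in 23 of 23, by a log2 of 0.39 to 1.91 with a median of 1.27 on plain shares. Library by library, both chimpanzee libraries lay above both human ones in 22 of 23. The exception was Brainbar3, where chimpanzee 4 had 5.48 per 1000 (2 UMIs), below human 4 (9.20) and human 5 (7.69). These 23 differences share the 4 libraries, so they are not independent of the overall ratio. Over single barcodes and libraries GLI2 ran from 2.16 to 11.4 per 1000 in human 4, 4.49 to 21.4 in human 5, 13.3 to 28.1 in chimpanzee 3 and 5.48 to 26.0 in chimpanzee 4. The extremes of human 5 and chimpanzee 4 rest on 9 and 2 UMIs (SplintRbar30 and Brainbar3).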

How the data were processed

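The deposited tables hold UMI counts per cell barcode, with columns for genes and guide barcodes, per the file headers. Tools listed, per the submitters' processing notes, are fastp, UMI-tools, Bowtie and SAMtools, with the build hg38. Their roles, their versions and the rule for keeping cell barcodes are not stated there. GLI2 and the lists of genes were chosen with earlier results of these data known.

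From these counts, cells with GAPDH above 80% of gene UMIs were left out. Spread and correlation used cells with at least 10 UMIs outside GAPDH. Thinning to 30 UMIs used the hypergeometric expectation. Sums per library, and per library and barcode (at least 5 cells), were tested with edgeR 4.0.16 (R 4.3.3) and DESeq2 1.42.0. The edgeR fits used quasi-likelihood, 1 common dispersion and TMM. All tests used Benjamini-Hochberg at 0.05. The species fit took genes of at least 10 UMIs in each library, and the barcode fit had no such limit. The barcode fit had a mean per species and barcode plus a library term. Intervals are 95%. Scripts were tested on simulated data.

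Named beside GLI2 are DAZL, the 3 genes most and 3 least correlated with it, and the 3 highest and lowest barcodes per species. Genes named for the high cells were chosen after their values were seen. The chi-square between the 2 libraries of a species was divided by its degrees of freedom. It was 35.0 in human and 132 in chimpanzee, well above counting noise. Cells vary beyond counting, so this value cannot show that the libraries are separate cultures. Each library was counted once. The species p-values measure only the spread between these libraries, which edgeR shares between genes. The barcode p-values rest on how groups of the same barcode differ between libraries beyond a library term, also shared between genes. Either spread may be technical.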

Additional observations from a re-analysis of the deposited data

Results flagged for a closer look

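The 1712 cells of human 4 left out for their GAPDH share also held GLI2, at 7.96 UMIs per 1000 UMIs outside GAPDH (405 UMIs), beside 7.80 in the kept cells of that library. They were looked at because they lie outside the comparison, and they were shallow, with a median of 27 UMIs outside GAPDH. Of the 1712 cells, 888 carried a cell barcode shared with another library, beside 298 of the 2113 kept cells. No library without CRISPRi serves as a control for this GLI2 level. No group had enough libraries for a check of single libraries standing apart.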

How the results depend on the processing

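No paired analysis was possible because the 4 libraries all belong to screen replicate 2 and the labels give them no numbers of their own. The log2 ratio of GLI2 between species stayed negative and past the threshold in all 15 alternatives (-1.81 to -1.23, the latter with counts capped at 3 per cell), with adjusted p up to 0.00672. Leaving out 1 library at a time, where a lone library is assumed to vary like the others, it ran from -1.81 to -1.55. Between 13 (counts capped at 3 per cell) and 17 genes were called. The detection difference ran from -31.6 percentage points at full depth to -16.8 with 20 UMIs. The dispersion ratio of 0.23 turned to -1.01 without the top 1% of cells, and ran from -0.11 (without chimpanzee 3) to 0.58 with 1 library left out; the cause was not tested. The correlation with NPAS3 ran from 0.105 (ranks) to 0.220 with the depth taken without the pair. That last measure scales both genes by the same remaining depth, so it is not free of bias either. The cause of its higher value was not tested. GLI2 calls by barcode stayed at 0 in human, over both species and for the difference between species in all 13 alternatives each. In chimpanzee they ran from 0 to 1 with 1 library left out, the 1 being without chimpanzee 3; the cause was not tested. Calls over all genes, 8 in human, 1 in chimpanzee, 2 over both and 4 for the difference, ran from 0 to 16, 19, 13 and 26. Leaving out cells with shared barcodes was added after seeing the data.

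Each species is 1 line with 2 libraries, so line, species and culture cannot be told apart. In human cells few were deep enough to show missing GLI2, and most barcodes had few cells.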
